A study of Mus musculus with 12 samples.

Results

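Total retina RNA was compared between mice whose rods had lost Pkm2 and their littermate controls, in 6 libraries. The members were all genes with a mean of 1 or more scaled reads in a genotype, which kept 25590 of the 56748 genes in the table. Another 26029 genes had no read in any of the 6 libraries, and 5129 had some reads but a mean under 1. Just inside this limit lay Tbx4, with a mean of 1 in control, and just outside it Nkg7, with a mean of 0.967 in control.

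All mice were homozygous for RiboTag, a ribosomal protein allele to which Cre adds an HA epitope, and carried the i75 Cre transgene, which is active in rods. Control mice had 1 floxed and 1 intact Pkm2 allele (RiboTag;Pkm2fl/+;i75-Rod-Cre, called Pkm2Rodhet or wild type by the study), so that their rods were already heterozygous. Pkm2Rodko mice had 2 floxed alleles (RiboTag;Pkm2fl/fl;i75-Rod-Cre). The deposited description gives the age as 2 weeks and the methods as 2 months. The series holds 12 libraries, 3 in each of 4 groups: total retinal lysate and the rod translatome pulled down with HA, in both genotypes. Only the total lysate is described here, and the rod libraries serve as a comparison for named genes. Whether each library came from a separate animal is not given, so the p-values measure the spread between these libraries.

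Pyruvate kinase makes pyruvate and ATP in the last step of glycolysis. The Pkm gene gives 2 forms by splicing in either exon 9 (PKM1, an enzyme that is constitutively active) or exon 10 (PKM2, which switches between active and less active states and also acts on transcription). Photoreceptors ferment much of their glucose to lactate in the presence of oxygen, and PKM2 is the form they mostly use, while other retinal neurons use more PKM1. A deletion of exon 10 in rods alone therefore leaves the gene whole in every other cell of the retina, and leaves exon 9 in rods. The study reports more Pkm1 in rods of Pkm2Rodko mice, so a value for the whole gene mixes both forms.

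The 2 alternative exons are shown because the floxed allele removes exon 10 only, while the deposited values count the whole gene. Both have 167 bases and lie in the GENCODE vM21 transcripts Pkm-202 (exon 9) and Pkm-201 (exon 10). Capitals mark the bases at which the aligned exons differ.
exon 9 (Pkm1): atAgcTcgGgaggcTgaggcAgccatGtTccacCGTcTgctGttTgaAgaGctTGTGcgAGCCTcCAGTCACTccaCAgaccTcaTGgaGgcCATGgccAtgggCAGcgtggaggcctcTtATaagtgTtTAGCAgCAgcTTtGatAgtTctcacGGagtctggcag
exon 10 (Pkm2): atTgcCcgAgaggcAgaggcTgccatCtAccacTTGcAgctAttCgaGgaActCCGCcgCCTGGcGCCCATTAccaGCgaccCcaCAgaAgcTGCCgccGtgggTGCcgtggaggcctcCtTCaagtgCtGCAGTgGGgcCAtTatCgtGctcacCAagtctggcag
The exons are identical at 103 of 167 positions (61.7%) and differ at 64. Of the annotated Pkm pseudogenes, Gm6560 matches exon 10 at 98.2% of the aligned bases and exon 9 at 67.1%, and Gm6992 matches them at 93.9% and 65.4%. A read from exon 10 can therefore fit a pseudogene nearly as well as Pkm, and how such reads were assigned is not stated.

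Pkm was the only gene called at an adjusted p under 0.05 in total retina RNA. It fell by 36.5% in Pkm2Rodko retinas. The scaled reads (reads divided by a size factor of the library) were 31189.6, 34233.7 and 31547.7 in control and 20106.8, 20328.1 and 21153.5 in Pkm2Rodko. The lowest control library thus stood well above the highest Pkm2Rodko library. The means were 32320 ± 1664 and 20530 ± 551.6 (SD, n = 3 each). As CPM, which scales to the library's own total instead of the size factor, Pkm was at 1841 ± 73.5 in control and 1164 ± 31.2 in Pkm2Rodko. The log2 fold change was -0.65 (SE 0.074, 95% interval -0.81 to -0.49, which is a fall of 43.1% to 29.0%), with an adjusted p of 0.0219 in limma. The adjusted p was 0.00957 in edgeR and 4.67e-17 in DESeq2 on the recovered reads. An exact two-sided permutation test of the 6 values gave p = 0.1, the smallest that 3 libraries against 3 can give. With control 1, control 3 or any of the Pkm2Rodko libraries omitted, the estimate lay between -0.68 and -0.64, but the adjusted p in limma lay between 0.0627 and 0.949, so that the call was lost. In bulk RNA, fewer cells of a type and less RNA per cell cannot be told apart.

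The pseudogenes had differences in the same direction as Pkm that did not pass the test. Gm6560 read 680.9, 804.7 and 924.7 in control and 553.8, 539.0 and 558.0 in Pkm2Rodko, a log2 fold change of -0.53 with an unadjusted p of 0.000306 in limma. Gm6992 read 169.5, 223.8 and 270.2 against 158.2, 142.9 and 146.4, a log2 fold change of -0.54. In both, all control libraries were above all Pkm2Rodko libraries. Gm49759, annotated inside the span of Pkm on the same strand, read 625.3, 905.9 and 651.9 against 570.7, 484.7 and 575.1. Its reads and those of Pkm cannot be told apart if counting allowed overlaps. Pklr, the pyruvate kinase of liver and red blood cells, had at most 2.1 scaled reads in any library, so that no difference was detectable at this depth.

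**Figure D1:**
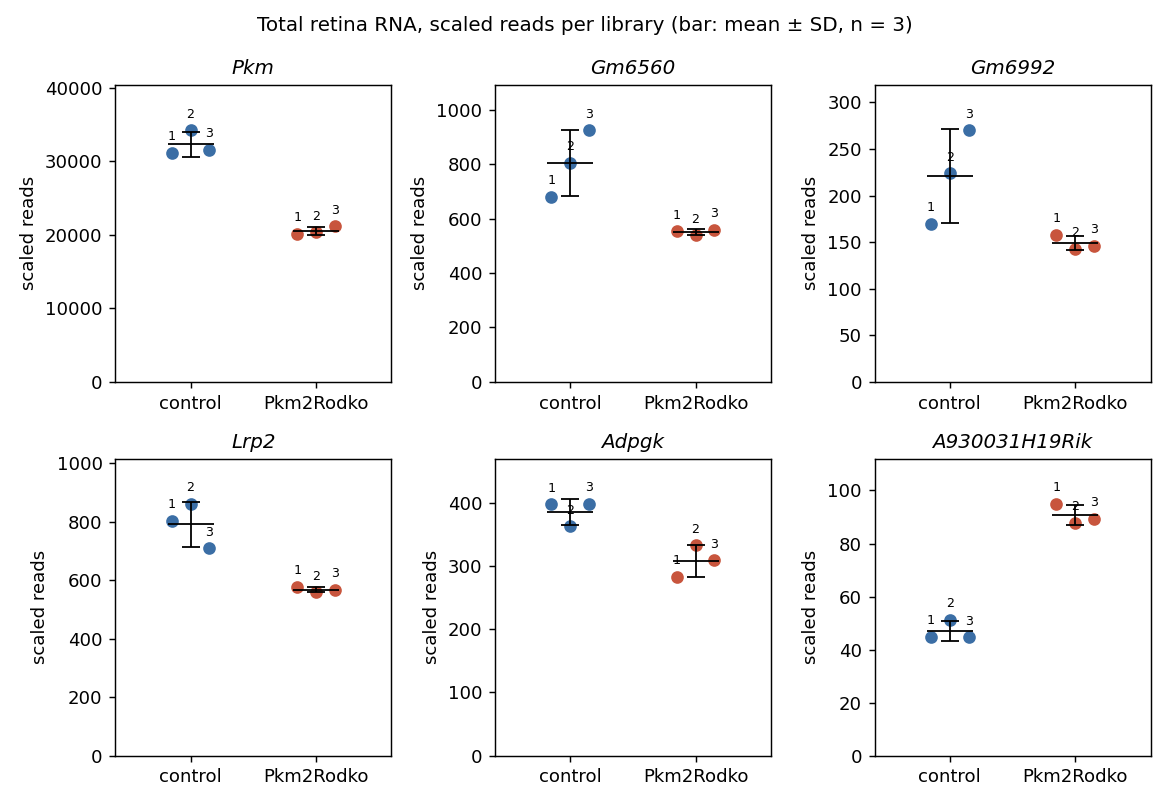
Scaled reads (vertical axis, from 0) in the 3 control and 3 Pkm2Rodko retina libraries (numbered points) for 6 genes, with the mean and SD as bars. Pkm lies between 31189.6 and 34233.7 in control and between 20106.8 and 21153.5 in Pkm2Rodko; A930031H19Rik shows the opposite order, at 44.6 to 51.2 against 87.7 to 94.9.

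In the rod translatome of the same series Pkm read 52140.7, 51049.0 and 54504.0 in control and 23751.0, 22552.6 and 22245.6 in Pkm2Rodko, on a scale of its own. The log2 fold change there was -1.20 (adjusted p = 5.36e-05, limma), against -0.65 in total retina. With all 12 libraries on 1 scale, the effect in rods minus that in retina was -0.54 (SE 0.103, 95% interval -0.76 to -0.32). This fit took rod and retina libraries as independent, although the study sequenced both the input and the pulldown of retinal tissue. Whether libraries of the same number share a lysate is not given. Its unadjusted p was 9.18e-05 in limma. This difference did not pass the adjustment over 25478 genes (adjusted p = 0.978, limma), and no gene did, while 1128 (4.43%) had an unadjusted p under 0.05. Whole retina thus held a fall in Pkm whose estimate was smaller than that in rods. The interval for Pkm alone held only negative values, but the difference did not pass the adjustment over all genes.

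Beyond Pkm, no gene passed. Of the 25590 genes tested, 1 was called lower (0.00391%) and 0 higher at an adjusted p of 0.05, and limma, edgeR and DESeq2 each called Pkm alone. At an unadjusted p under 0.05, limma gave 527 lower (2.06%) and 542 higher genes (2.12%), or 4.18% in all. edgeR gave 1028 genes (4.02%), of which 419 were higher (1.64%), and DESeq2 gave 549 (2.15%), of which 292 were higher (1.14%). The libraries of the genotypes did not overlap for 1217 lower (4.76%) and 1160 higher genes (4.53%), or 9.29% in all. Negative log2 fold changes made up 51% of the genes and positive ones 49%, around a median of -0.0045.

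How precisely a change was measured depended on the level of the gene. The intervals given here are for single genes and are not adjusted for the number of genes. A change larger than their reach therefore need not pass the adjusted test. Among the 8119 genes with a mean of 100 to 1000 scaled reads, 90% of the log2 fold changes lay between -0.24 and 0.22, and the 95% interval reached 0.257 to either side in the median gene. For 3746 genes at 1000 to 10000 it reached 0.179. For 5527 genes at 10 to 100 it widened to 0.701, and for 8049 genes under 10 to 1.46. The reads assigned to genes numbered 15591452 to 20265830 per retina library. Control 2 stood furthest from the other libraries, with a Pearson correlation of 0.973 to 0.976 across genes with each of them, against 0.977 to 0.981 among the rest.

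**Figure D2:**
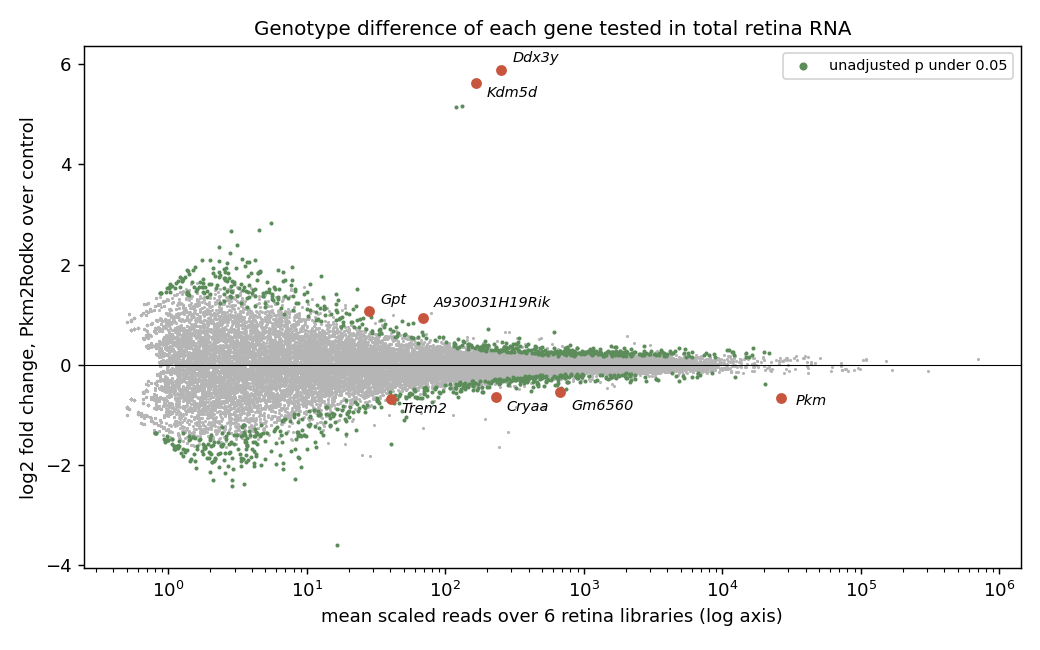
Mean scaled reads over the 6 retina libraries (horizontal, log axis) against the log2 fold change of Pkm2Rodko over control (vertical) for 25590 genes; green points have an unadjusted p under 0.05 and red points are labelled genes. Pkm sits alone at -0.65 among genes of its level, and the Y-linked genes Ddx3y and Kdm5d lie at 5.89 and 5.63. Both had 0 reads in control 1 and control 2, which enlarges these values.

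The genes next in order on the lower side, among those with enough reads, had mostly moderate differences. They were taken as the 10 smallest p-values in each direction among genes with a mean of 50 or more and no overlap. Their level and their lack of overlap were thus part of the choice. Lrp2, which encodes megalin, an endocytic receptor, read 802.6, 860.1 and 708.5 in control and 576.0, 558.0 and 567.1 in Pkm2Rodko (log2 fold change -0.47). Fkbp2, a chaperone of the endoplasmic reticulum, read 587.3, 608.6 and 575.6 against 447.3, 422.3 and 458.5 (-0.42). Asns, the asparagine synthetase, read 890.3, 789.7 and 866.4 against 675.1, 628.5 and 697.5 (-0.35). The others on this side, beside Pkm and Gm6560, were Tceal5 (-0.42), the lactonase gene Pon2 (-0.34), the kinase anchor gene Akap12 (-0.34), the glutathione transferase gene Gstm5 (-0.35) and the annexin gene Anxa1 (-0.47). The adjusted p was 0.947 for each of them in limma.

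On the higher side, A930031H19Rik, a long non-coding RNA, led. The study names it beside Pkm as differentially regulated in retinal mRNA, by a test its methods do not name. It did not pass here. It read 44.8, 51.2 and 44.6 in control and 94.9, 87.7 and 89.2 in Pkm2Rodko, 93.3% more on average, without overlap. The log2 fold change was 0.94 (95% interval 0.52 to 1.36), the unadjusted p in limma 0.000329, and the adjusted p 0.947 in limma, 0.936 in edgeR and 1.0 in DESeq2. In rods it read 112.8, 43.0 and 91.2 against 135.8, 111.5 and 128.3, where the genotypes overlapped narrowly (log2 fold change 0.70). Tlcd3b, a ceramide synthase gene of photoreceptors, read 13837.2, 14361.3 and 15724.1 against 18870.4, 20830.0 and 16085.0 in retina (0.34). The phospholipase gene Plcd3 (0.33), the sulfotransferase gene Chst3 (0.28), the cyclin-dependent kinase activator gene Cdk5r2 (0.27), the RNA-binding protein gene Ybx3 (0.26) and the non-coding genes Rncr4 (0.37), E130310I04Rik (0.35) and Uckl1os (0.28) had smaller differences. The last of these and E130310I04Rik are annotated antisense to other genes, and without a stated strand setting their reads cannot be told apart from those of their partners. Kdm5d, the remaining member, is Y-linked.

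Reads of Y-linked genes differed between the libraries in a way that crossed the genotypes. Ddx3y, Eif2s3y, Kdm5d and Uty were at 0 in control 1 and control 2 and present in control 3 and in all Pkm2Rodko libraries, for example Ddx3y at 293.4 in control 3 and at 260.6, 484.7 and 483.6 in Pkm2Rodko. Xist, which is transcribed from the inactive X, was present in all 6 libraries, at 927.3, 969.9 and 672.5 in control and 824.9, 425.0 and 620.9 in Pkm2Rodko. Thus 4 libraries held both Xist and Y-linked reads, and the presence of Y-linked reads was not balanced between genotypes. With those 4 libraries alone (1 control against 3 Pkm2Rodko, the lone control being taken to vary like the others), the log2 fold change was -0.62 for Pkm, -0.32 for Lrp2 and 1.01 for A930031H19Rik, and no gene passed. Without control 3, the 4 Y-linked genes were called higher.

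The rest of glycolysis showed no change past the test. Of 23 enzymes listed, 22 were tested, with a median log2 fold change of 0.048, 9 below and 13 above 0. An unadjusted p under 0.05 was found for 1 of the 22, beside 4.18% of all genes. Omitting any 1 library gave medians of 0.011 to 0.054. Aldoa, which splits fructose bisphosphate, read 46965.1, 46838.7 and 50603.5 in control and 54028.9, 51206.4 and 52196.1 in Pkm2Rodko (0.13). Eno1, the enolase just upstream of pyruvate kinase, read 25635.7, 25990.0 and 24593.6 against 25953.2, 26107.8 and 25470.9 (0.02). Ldha, which turns pyruvate into lactate, overlapped at 17575.5 to 21363.4 against 20353.2 to 21015.1 (0.14). The summed reads of the list were 214268 to 226822 in control and 226182 to 230839 in Pkm2Rodko, and these ranges overlapped at their edge.

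That gene was Adpgk, the ADP-dependent glucokinase, whose gene lies near Pkm. It read 397.4, 362.4 and 398.0 in control and 282.7, 332.8 and 308.7 in Pkm2Rodko, with no overlap. The log2 fold change was -0.33 (unadjusted p = 0.0101, adjusted p = 0.947, limma). In the rod translatome it was -1.02, with an adjusted p of 0.00712 in limma. The effect in rods minus that in retina was -0.69 (adjusted p = 0.978, limma).

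Upstream and downstream of glycolysis the medians stayed near that of all genes. Among 10 carriers of glucose, lactate and pyruvate the median was -0.007. The glucose transporter gene Slc2a1 had 0.02, the lactate transporter gene Slc16a1 0.12 and their partner Bsg, or basigin, -0.03. Slc16a3, a lactate exporter, read 883.5, 1154.2 and 931.6 in control and 1091.8, 1384.6 and 1193.7 in Pkm2Rodko (0.31, unadjusted p = 0.0182), with overlapping libraries. Pyruvate dehydrogenase and other users of pyruvate (17 genes) had a median of -0.015. In this group Gpt, the alanine aminotransferase, read 22.4, 8.5 and 25.7 against 48.5, 32.6 and 32.0 (1.07, unadjusted p = 0.0192), at few reads.

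The other metabolic lists had medians between -0.041 and -0.004. The pentose phosphate pathway (10 genes, median -0.028), the tricarboxylic acid cycle (17 genes, -0.026), nuclear subunits of the respiratory chain (22 genes, -0.039) and antioxidant enzymes (19 genes, -0.029) had no member at an unadjusted p under 0.05. Serine and one-carbon enzymes (10 genes, -0.02) had Psat1, a step of serine synthesis, at -0.25. Fatty acid oxidation (16 genes, -0.041) had the electron carrier gene Etfa at -0.23. Creatine, adenylate kinase and AMPK genes (16 genes, -0.004) had Ak4, a mitochondrial adenylate kinase, at 0.25, which read 1311.1, 1521.9 and 1229.2 in control and 1536.0, 1647.7 and 1630.4 in Pkm2Rodko.

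The 13 protein genes of the mitochondrial genome all had negative log2 fold changes, with a median of -0.11. They were lowest in Pkm2Rodko 2 for 13 of 13 genes, with a summed level of 896414 there against 1166745 and 1070382 in the other Pkm2Rodko libraries and 1031157 to 1197113 in control. Without that library the median was 0.006, with 6 of 13 negative. mt-Co1, a core subunit of cytochrome oxidase, read 341597.3, 306716.0 and 312158.5 in control and 327909.7, 256837.7 and 297046.8 in Pkm2Rodko.

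**Figure D3:**
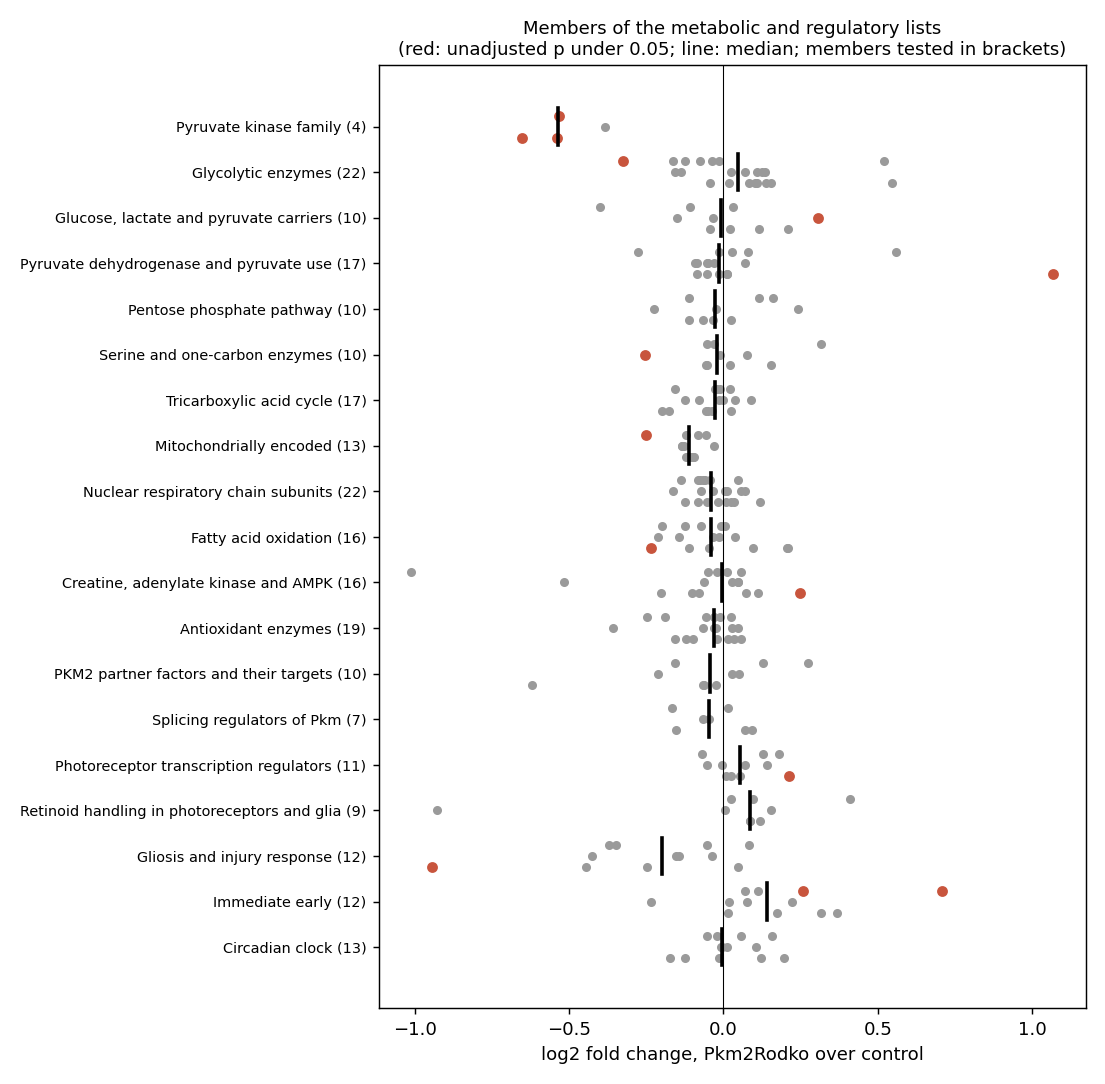
Log2 fold change of Pkm2Rodko over control (horizontal) for each tested member of 19 metabolic and regulatory lists (rows, number of members tested in brackets); black lines are medians and red points have an unadjusted p under 0.05. The pyruvate kinase family stands to the left at a median of -0.54, and the median of the 22 glycolytic enzymes lies at 0.048.

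Regulators tied to PKM2 were also looked at. The proteins HIF-1α, β-catenin and STAT3 are known as partners of PKM2 in the nucleus. Their genes and targets (10 in all) had a median of -0.044, with Hif1a at -0.03, Epas1 at 0.13 and Ctnnb1 at -0.06. The splicing factors that choose between exon 9 and exon 10 had a median of -0.045 over 7 genes, with Hnrnpa1 at -0.17, Hnrnpa2b1 at -0.15 and Srsf3 at -0.04. No member of either list had an unadjusted p under 0.05. Photoreceptor transcription regulators (11 genes, median 0.054) had Crx at 0.05 and Mef2d at 0.21. Mef2d read 7518.6, 8444.1 and 8083.8 in control and 9411.0, 8956.7 and 9458.0 in Pkm2Rodko, without overlap.

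Rod markers had small differences, most of them positive. Of 20 rod markers, 17 had a positive log2 fold change, with a median of 0.091, 2 had an unadjusted p under 0.05 (2.12% of all genes on that side) and 5 did not overlap on the higher side (4.53% of all genes). The median was 0.043 without control 3 and 0.154 without control 2. Gnat1, the rod transducin, and Prph2, which shapes the disc rim, had 0.08 and 0.12. Esrrb, a nuclear receptor of rods, read 9736.5, 11458.1 and 11159.0 in control and 12754.0, 12398.7 and 13228.8 in Pkm2Rodko (0.25), and Reep6, a trafficking factor of rods, 18861.2, 19648.6 and 21032.1 against 24817.0, 23807.1 and 21832.7 (0.24). The summed level was 1394382 to 1632149 in control and 1536553 to 1682071 in Pkm2Rodko, and these ranges overlapped. Retinoid genes of photoreceptors and glia, such as Abca4 (0.09), Rdh12 (0.09) and Rbp3 (0.10), had a median of 0.087 over 9 genes.

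Cone and inner retinal markers had medians on the other side of 0. Among 12 cone markers 9 were negative (median -0.088, and -0.056 without control 1). Opn1sw, the short-wave opsin, read 8340.7, 8736.2 and 8227.9 in control and 7652.4, 7670.7 and 7959.0 in Pkm2Rodko (-0.12), without overlap, and Gnb3, a transducin subunit of cones that bipolar cells share, had -0.33. The summed cone level was 26996 to 28888 in control and 24474 to 26026 in Pkm2Rodko. These sums did not overlap, but Gnb3 is part of them. It read 6251.4, 4368.6 and 5638.2 in control and 4243.9, 4038.8 and 4543.8 in Pkm2Rodko, and without its reads the sums would overlap.

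The 20 bipolar markers all had negative log2 fold changes, with a median of -0.185. Of these, 5 had an unadjusted p under 0.05, beside 2.06% of all genes on the lower side: Cabp5 (-0.26), Isl1 (-0.24), Gng13 (-0.27), Scgn (-0.32) and Car8 (-0.28). Car8 read 1750.3, 1550.7 and 1569.8 in control and 1198.4, 1445.2 and 1381.2 in Pkm2Rodko. The lowest library was Pkm2Rodko 1 for 17 of the 20 genes. The summed level there was 26875, against 34641 and 33526 in the other Pkm2Rodko libraries and 34850 to 36209 in control. Without Pkm2Rodko 1 the median was -0.077, with 15 of 20 negative.

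Müller glia markers (14 genes) had a median of -0.144, with 13 negative. Pkm2Rodko 1 was the lowest library for 9 of them, and the median was -0.102 without it and -0.095 without control 1, with 11 negative in each case. Glul, the glutamine synthetase of Müller glia, read 45360.9, 43907.8 and 42391.9 in control and 36395.8, 40089.2 and 41670.2 in Pkm2Rodko (-0.16), and Aqp4, its water channel, had -0.29. The summed level overlapped, at 100486 to 114215 against 92441 to 102676. Amacrine (12 genes), horizontal (6) and ganglion cell markers (12) had medians of -0.051, -0.066 and -0.032 with no member at an unadjusted p under 0.05. Endothelial and pericyte markers (14 genes) had a median of -0.101, or -0.051 without Pkm2Rodko 3, and their sums overlapped. No gene of any cell type list passed the adjusted test.

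Markers of tissue next to the retina varied from library to library more than between genotypes. The summed level of 12 pigment epithelium markers was 11584, 2755 and 23991 in control and 13336, 14796 and 4747 in Pkm2Rodko, an 8.71-fold range. Its median log2 fold change of -0.113 turned to 0.732 without control 3 and to 0.589 without Pkm2Rodko 3. The 13 lens crystallins tested summed to 3695, 632 and 1190 against 823, 1296 and 650. Cryab alone read 1051.0, 583.0 and 1151.2 in control and 783.8, 765.1 and 639.1 in Pkm2Rodko. It was the larger part of the sum in every library but control 1, and it did not follow Cryaa. Cryaa, an alpha crystallin of the lens, read 1169.8 in control 1 and 199.0 in Pkm2Rodko 2, but at most 8.5 elsewhere. The lens median of -0.689 became 0.117 without control 1. The 5 blood genes summed to 884, 2116 and 2786 in control and 1991, 781 and 2411 in Pkm2Rodko, and their median of -0.255 became 0.382 without Pkm2Rodko 2. The part of these tissues in the gene values above was not tested.

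**Figure D4:**
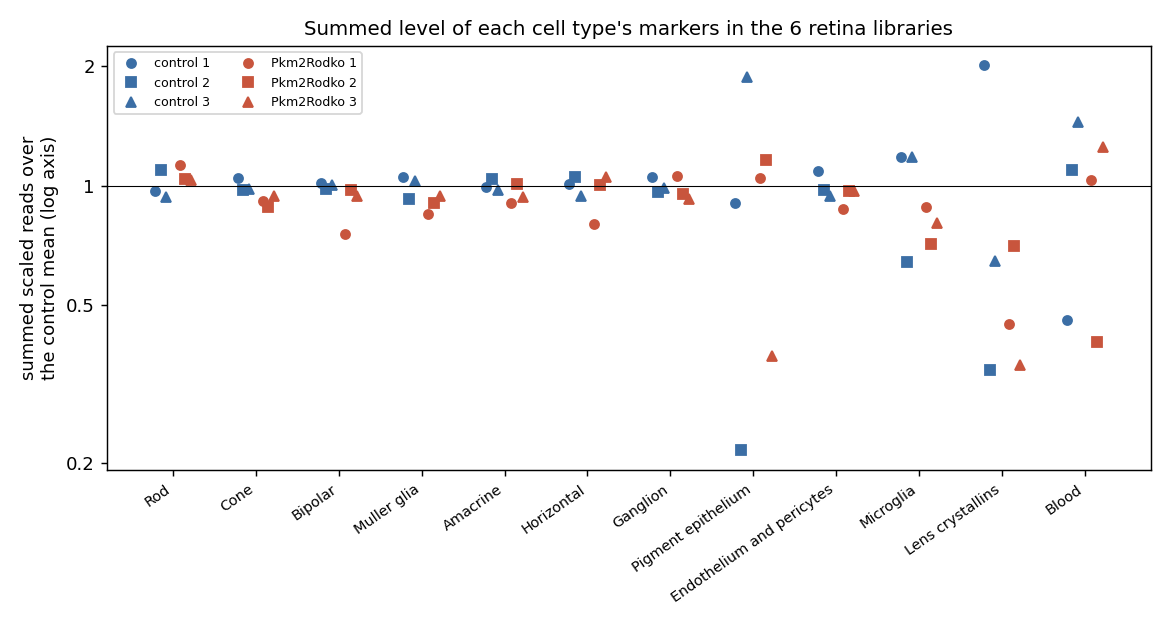
Summed scaled reads of 12 cell type marker lists in each retina library, divided by the mean of the 3 control libraries (vertical, log axis); blue marks are control and red marks Pkm2Rodko, with the shape giving the library number. The neural lists stay close to 1, with Pkm2Rodko 1 lowest for bipolar cells, while pigment epithelium, lens and blood spread widely in both genotypes.

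Genes of gliosis and injury had mostly negative differences. The 12 genes had a median of -0.2, with 10 negative. Gfap, the glial filament raised in stressed Müller glia, read 695.5, 322.9 and 628.8 in control and 431.5, 342.8 and 571.7 in Pkm2Rodko (-0.25). Fgf2 read 2085.4, 748.2 and 1695.0 against 1118.2, 779.6 and 1471.5 (-0.35). Control 2 was the lowest library for 9 of the 12 genes, and without it the median was -0.70, with 12 negative. Without control 1 it was -0.03 and without control 3 -0.053, with 7 of 12 negative in each case, and without Pkm2Rodko 2 it was -0.081 and without Pkm2Rodko 3 -0.434. The cytokine gene Lif, at an unadjusted p of 0.0254, had few reads, 30.2, 17.1 and 31.7 against 10.5, 17.2 and 11.4 (-0.94).

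Microglia markers (12 genes) had a median of -0.305, with 11 negative. It was -0.135 without control 1 and -0.109 without control 3, where 9 were negative, and -0.508 without control 2. Control 2 was again the lowest for 7 of them, and their sums overlapped at 1331 to 2439 in control and 1475 to 1828 in Pkm2Rodko. Trem2, a receptor of activated microglia, read 56.5, 35.2 and 59.2 against 35.9, 27.1 and 28.6 (-0.68). Immediate early genes (12) had a median of 0.142, with 11 positive. Jun read 311.7, 308.0 and 365.4 in control and 406.1, 399.7 and 370.5 in Pkm2Rodko (0.26), and Egr3 38.0, 22.4 and 30.0 against 65.4, 38.9 and 45.7 (0.71). Without control 2 their median was 0.038, with 5 negative, and it was 0.215 without control 3 and 0.24 without Pkm2Rodko 2. The clock genes (13) had a median of -0.006, and Nr1d1, a clock repressor with a strong daily rhythm, lay at 4155.1 to 4388.0 in control and 4029.8 to 4441.3 in Pkm2Rodko.

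Genes around Pkm were described as a group, since a floxed allele is inherited together with its chromosome segment. Of 427 genes within 10 Mb of Pkm, placed by their order on GRCm38, 263 were tested, with a median log2 fold change of -0.027. At an unadjusted p under 0.05 there were 16 lower genes (6.08%, against 2.06% of all genes) and 4 higher (1.52%, against 2.12%), and the libraries did not overlap for 28 lower (10.6%, against 4.76%) and 8 higher (3.04%, against 4.53%). Besides Adpgk and Gm49759, these included Chrna5, a nicotinic receptor subunit gene, at 143.2, 182.2 and 133.8 in control and 97.1, 104.9 and 114.3 in Pkm2Rodko (-0.52). Rcn2, a calcium-binding protein gene, read 1660.7, 1496.3 and 1521.7 against 1351.4, 1253.4 and 1369.8 (-0.23). Cplx3, a complexin gene of ribbon synapses, had -0.17, Smad3 -0.23 and Cd276 -0.30, while Dis3l had 0.24 and Ubap1l 0.20. None passed the adjusted test, and whether linkage to Pkm plays a part was not tested. The counts include Gm49759, whose reads may not be separable from those of Pkm.

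**Figure D5:**
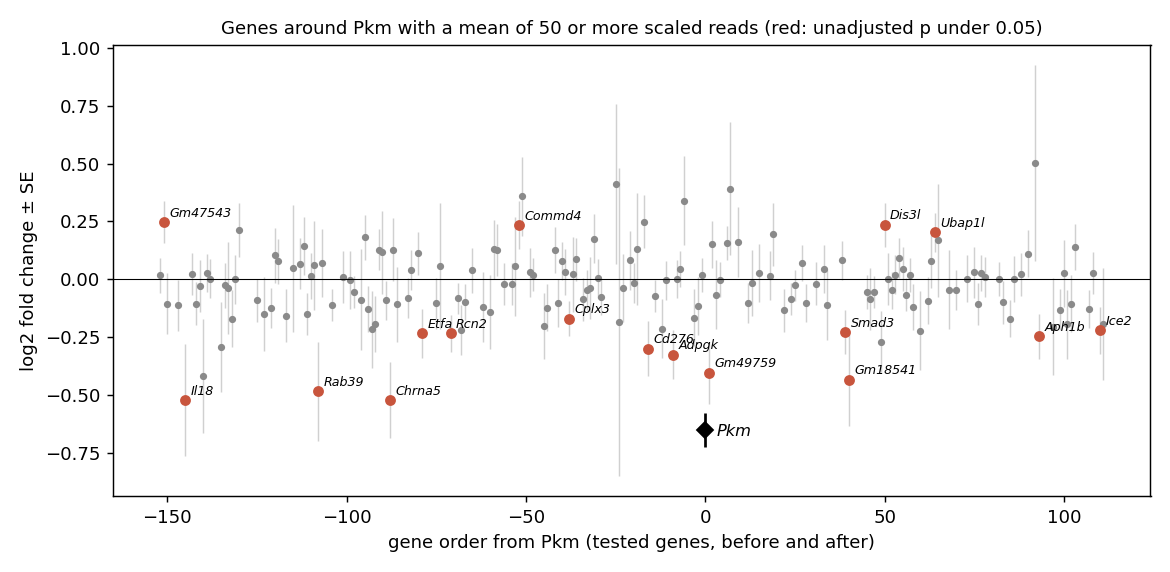
Log2 fold change with SE (vertical) of genes within 10 Mb of Pkm that have a mean of 50 or more scaled reads, by gene order from Pkm (horizontal); red points have an unadjusted p under 0.05 and the black diamond is Pkm. Pkm stands at -0.65 with Gm49759 (-0.40) and Adpgk (-0.33) near it, and labelled genes are found out to both ends of the window.

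Genes that the study names from its rod translatome were looked up in total retina. Besides Pkm, Gm6560 and Gm6992 these are 20 genes, chosen on rod libraries of this series, so their direction is not independent of those. In total retina 18 had a negative log2 fold change, with a median of -0.153. On the lower side 7 had an unadjusted p under 0.05 (2.06% of all genes) and 7 did not overlap (4.76% of all genes), on the higher side 0 did either, and none passed the adjusted test. In rods the same genes had a median of -0.79, with 19 negative. Timp2, which the study names outside the translatome, had -0.17 in retina. Besides Lrp2, Akap12, Adpgk and Cabp5, the genes at an unadjusted p under 0.05 in retina were Gpr162 (-0.23 in retina, -0.55 in rods), Gucy1b1, a subunit of the nitric oxide receptor (-0.24, -0.82), and the proprotein convertase gene Pcsk6 (-0.22, -1.18). Gpr162 read 1972.4, 1815.0 and 2027.0 in control and 1510.6, 1683.0 and 1767.7 in Pkm2Rodko retinas. Others differed little in retina, such as Hs3st5 (0.01, against -1.20 in rods), Flrt1 (-0.06, against -1.33) and Igsf21 (-0.01, against -0.66). For each of these the retinal libraries overlapped. The study prints Hs3sl5 with the description of a sulfotransferase other than Hs3st5, and the symbol was read here as Hs3st5.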

How the data were processed

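Retinal lysates and HA-precipitated polyribosomes were sequenced from Pkm2Rodhet control and Pkm2Rodko mice. For each gene and library the authors deposited a signal, obtained from the read count with size factors of the median-of-ratios kind set within each fraction, to 1 decimal. The submitters' processing notes name CASAVA 1.8.2, HISAT2, DESeq2, edgeR and GRCm39. The counting rule and its use of strand are not given in the sources used here. Dividing by the smallest step gave whole reads for 100% of positive values. As no reference of that build was used, no coordinates are given, and neighbours and exons came from GENCODE vM21.

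Genotypes were compared with limma 3.58.1 (variance trend, R 4.3.3) on log2(value + 1). The added 1 shrinks the fold changes of genes that are low in all libraries. Genes at 0 in only some libraries can instead get larger values than in the count tests. For Ddx3y the log2 fold change was 5.89 in limma, 2.00 in edgeR and 2.07 in DESeq2. Benjamini-Hochberg adjustment ran over all genes tested, with 0.05 as the threshold. Rods and retina were set side by side in 1 fit of TMM-scaled reads. edgeR 4.0.16 and DESeq2 1.42.0 on recovered reads, other scalings, pseudocounts, filters, a replicate block and leaving out each library were alternatives. Python 3.11.15 drew the figures. Scripts were tested on simulated data.

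The members and the 33 lists were chosen with earlier results of these data known. Named genes are Pkm and its relatives, genes passing the test, the 10 lower and 10 higher leading genes with a mean of 50 or more and no overlap, the 3 most abundant members of each list and those at an unadjusted p under 0.05, such genes within 10 Mb of Pkm, and genes the study names. Of each list the text gives examples. Some genes this rule names are not reported here. No 2 replicates agreed within sampling noise. With 3 libraries per group, counting error is small beside the spread between libraries for abundant genes.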

Additional observations from a re-analysis of the deposited data

How the results depend on the processing

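Pkm had a negative log2 fold change in every alternative (-0.68 to -0.61), but its call depended on the setting. It passed in edgeR with TMM or RLE scaling, in DESeq2, with TMM or total-read scaling, with a pseudocount of 0.1, without a filter and in 1 fit of all 12 libraries. It did not pass with a pseudocount of 10 (-0.65, adjusted p = 0.185), with 10 or more reads in every library (-0.65, adjusted p = 0.0933), without a variance trend (-0.65, adjusted p = 0.277, where Sycp2l was the 1 gene called lower) or with the 4 libraries that hold Y-linked reads (-0.62, adjusted p = 0.132), an alternative chosen after seeing the data. With a pseudocount of 10, with 10 or more reads and with those 4 libraries, 0 genes were called lower. Leaving out each library gave log2 fold changes of -0.68 to -0.61 for Pkm, with 0 to 2 genes lower (A2m and Pkm without control 2) and 0 to 4 higher (Ddx3y, Eif2s3y, Kdm5d and Uty without control 3). The cause was not tested.

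With the replicate number as a block, Pkm kept -0.65 with an adjusted p of 0.157, and 0 genes were called. The numbers share no stated litter or day, and deviations of same-numbered libraries correlated at 0.009, 0.003 and -0.072, so they were not taken to pair the samples. Within a genotype, rod and retina libraries of the same number had a like Y-linked pattern, with 0 reads in control 1 and control 2 of both fractions. The effect on Pkm in rods minus retina was -0.54 under the block of genotype and number (adjusted p = 0.32, limma), and every alternative stayed between -0.59 and -0.51 without passing.

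Depth limits the genes under 10 scaled reads most. With 1 library left out, the median changed sign at least once in 13 of 31 lists, with the pyruvate kinase and sex-linked lists not counted: pigment epithelium, lens, blood, ganglion, horizontal, mitochondrial, clock, carriers, creatine, photoreceptor regulators, PKM2 partners, serine and splicing. Likewise 47 of 167 named genes besides Pkm did so in at least 1 of 19 alternatives.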

Other observations

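Some genes outside the lists differed strongly between libraries, and they were chosen after their values were seen. Gbp2b, an interferon-induced guanylate-binding protein gene, read 34.1, 9.6 and 46.3 in control and 0.0, 0.0 and 9.1 in Pkm2Rodko retinas. Its log2 fold change of -3.59 (unadjusted p = 0.000987, limma) was the lowest of all genes tested, and its adjusted p in edgeR was 0.936. Cdh1, which encodes the epithelial cadherin, read 28.2, 26.6 and 42.9 in control and 11.6, 15.4 and 10.3 in Pkm2Rodko (-1.31), without overlap.

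Trim12c, a TRIM family gene, read 1405.9 in control 3 and 49.0 to 71.7 in the other retina libraries. In rods its values were 5.5 to 15.0, and control 3 was not the highest there. Gm5900, a processed pseudogene whose reads may be shared with its parent gene, read at least 52.2 in each control retina and 6.3, 25.3 and 37.7 in Pkm2Rodko retinas, and in rods 52.5, 51.1 and 61.6 against 8.1, 32.2 and 39.6.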
